A study of Bos grunniens with 6 samples.

Results

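The miR-2284/miR-2285 family is a large group of short RNAs annotated in cattle and other ruminants. Its members were taken here by name, as every entry of the deposited small-RNA table whose cattle name starts with miR-2284 or miR-2285, whatever its level. This gave 133 of the 2853 entries, and 133 of the 757 entries with cattle names. Of these, 24 carry miR-2284 names and 109 carry miR-2285 names. The table comes from yak (Bos grunniens) skin cells of wild-type (WT) genotype, isolated and cultured. Dermal papilla cells are mesenchyme at the base of the hair follicle that signals to the follicle. Hair matrix cells are the dividing epithelium around the papilla that builds the hair shaft. The table compares 3 libraries of dermal papilla cells with 3 libraries of hair matrix cells. Both were grown in the same medium, DMEM/F12 with 10% fetal bovine serum, IGF1 at 10 ng/mL, EGF at 20 ng/mL and penicillin-streptomycin, and each library was made from 1 µg of total RNA. The series title gives the question as which miRNAs differ between the cell types. The labels call the libraries biological replicates but name neither animals nor cultures, so a p-value here reflects only how these libraries spread, which may be technical. They do not give the purity of the cultures, and in such bulk samples fewer cells of a type and less RNA per cell cannot be told apart.

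A miRNA is a short RNA cut from a hairpin and loaded into an Argonaute protein, where it pairs with messenger RNAs and lowers their output. Bases 2 to 8 from its 5′ end, the seed, do most of the target recognition, so members that share a seed can share targets, and a change inside or a shift of the seed alters the set. The miR-2284/miR-2285 family is known for its many copies across ruminant genomes, and neighbouring members often differ by a single base or by the end at which they were cut. Roles of single members in hair follicle cells are not assumed here.

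The sequences below are those of the deposited table, printed 5′ to 3′ in DNA letters with the seed in capitals. The first set shows how the family divides. It holds the most abundant member of each of the 7 seeds with at least 2 tested members, and miR-2284x, which has the seed of miR-2285aj-5p:
miR-2285aj-5p: tGAAAAGTtcgtttgggttttt
miR-2284x: tGAAAAGTtcgttcgggtttt
miR-2285au: aAAAAGTTcgttcgggttttct
miR-2284y: aAAAGTTCgttcgggtttttc
miR-2285aa: aAAACTGGaacgaacttttgggc
miR-2285bc: aAAAACCTgaatgacccttttgg
miR-2285f: aAAACCTGaatgaactttttgg
miR-2285c: aAACCTGAacaaactttttggc

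Members fell into 2 sequence groups. Each member was aligned without gaps to miR-2285aj-5p, the most abundant member, and to miR-2285f, the most abundant one with fewer than 12 bases identical to it (11), and was put with the one to which more bases, and at least 12, were identical. This gave 51 members in the miR-2285aj-5p group and 80 in the miR-2285f group. Only miR-2285ah-5p and miR-2285ck, both rare, reached 12 identical bases with neither. The stretch AAGTT was found in 45 of the 51 members of the miR-2285aj-5p group and in 0 of the 80 of the miR-2285f group. Its reverse complement, AACTT, was found in 64 of the 80 and in 0 of the 51. For comparison, 1.6% of the 624 cattle-named entries outside the family and 3.82% of all 2853 entries held AAGTT on the strand listed. The longer stretch GAACTTTT stood in 50 members of the miR-2285f group, 62.5% of it, and overlaps AACTT. AGTTCGTT, which overlaps AAGTT, stood in 23 members of the miR-2285aj-5p group and in 0 cattle-named entries outside the family. Read as its reverse complement, miR-2285f was identical to miR-2285aj-5p at 16 of its 22 bases, so the groups are partly complementary to each other. Of the 7 members with a name ending in -5p, 6 were in the miR-2285aj-5p group, and the 3 with a name ending in -3p were all in the miR-2285f group. The names follow this division in part, since the miR-2285aj-5p group holds 23 of the 24 miR-2284 names together with 28 miR-2285 names, and the miR-2285f group holds 1 and 79. Members were 20 to 24 bases long, 77.4% of them began with A against 27.1% of other cattle-named entries, and their median GC content was 36.4% against 50% in those entries.

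RPM, the unit of all levels given here, scales each entry's reads to a fixed library total and not by length, since miRNAs are counted whole. The library totals were 23904796 to 24693655 reads, and listed entries took 71.7% to 73.5% of them. The level that 3 reads would give, the floor used here, was 0.121 to 0.125 RPM and covers counting error only. Marker miRNAs followed the labels. All 9 entries of the epithelial markers, led by the miR-200 family and miR-205, were called higher in hair matrix cells, with summed levels of 93.8 to 122.7 RPM in dermal papilla and 26523 to 26594 RPM in hair matrix libraries. All 6 mesenchymal entries (miR-143, miR-145, the miR-199 entries and miR-214) were called higher in dermal papilla cells, at 88413 to 91201 against 1204 to 1421 RPM. Blood markers (6 entries) summed to 18.4 to 21.6 RPM in dermal papilla and 8.59 to 11.8 RPM in hair matrix libraries, muscle markers (4 entries) to 57.9 to 72.7 and 24.6 to 26.3 RPM, and the melanocyte markers miR-204 and miR-211 to 73.9 to 99.4 and 2.41 to 2.83 RPM. Only 1 entry of each of these lists reached the level for testing. In dermal papilla cells 1 blood and 1 melanocyte entry stood at 0, and in hair matrix cells 1 muscle entry did. The melanocyte sum in dermal papilla cells thus rests on 1 entry. The part of such other cells in the family's levels was not tested.

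The family as a whole made up a small share of the miRNA reads in both cell types and was modestly higher in hair matrix cells. All 133 members together summed to 1278, 1262 and 1216 RPM in the dermal papilla libraries and to 1431, 1393 and 1436 RPM in the hair matrix libraries. The groups did not overlap, and the means were 1252 ± 32.2 and 1420 ± 23.3 RPM (SD, n = 3 each), a hair matrix to dermal papilla ratio of 1.13. Relative to the reads of all listed entries this was 0.172% ± 0.00280 and 0.196% ± 0.00358. One member, miR-2285aj-5p, held 65.9% ± 0.277 of the family's reads in dermal papilla and 48.0% ± 0.157 in hair matrix cells. Without it, the other members summed to 427 ± 14.2 and 738 ± 14.3 RPM, 1.73 times as much in hair matrix cells. The total therefore hid a larger difference among the other members. Entries with miR-2284 names summed to 86.7 ± 3.37 and 194.7 ± 5.55 RPM, 2.25 times as much in hair matrix cells, and entries with miR-2285 names to 1165 ± 30.5 and 1225 ± 24.3 RPM, 1.05 times. These sums are given without a test.

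**Figure D1:**
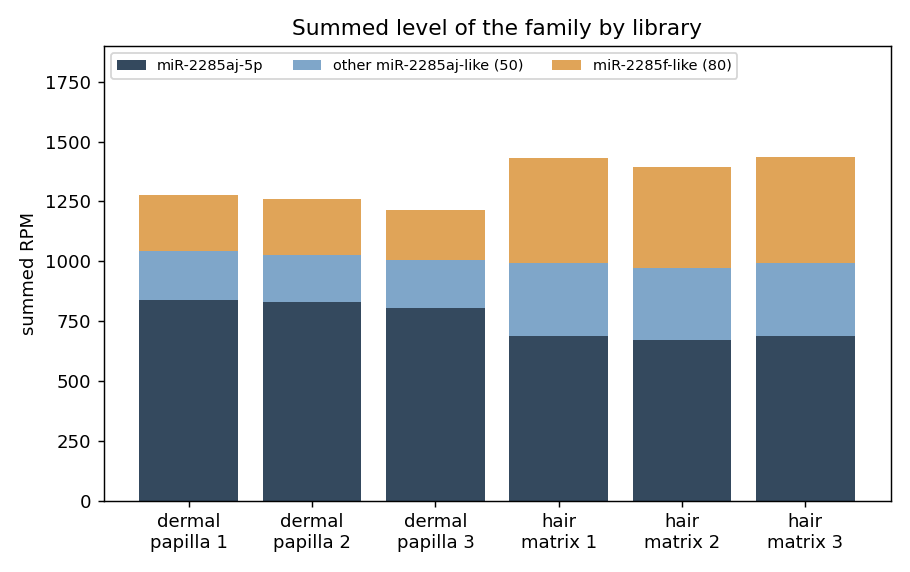
Summed level of the family in RPM (vertical axis, from 0) in each library, stacked as miR-2285aj-5p, the other 50 members of its sequence group and the 80 members of the miR-2285f group. The hair matrix libraries hold less miR-2285aj-5p and more of the other parts than the dermal papilla libraries.

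Most members that differed were higher in hair matrix cells. Of the 133 members, 56 had 1 RPM or more in 3 or more libraries and were tested with limma on log2(RPM + 1) in a fit of all 503 entries that passed the same filter. A member was called at a Benjamini-Hochberg adjusted p under 0.05 and a difference of at least 2-fold on that scale, which understates the change of low entries. By this rule 20 members were called higher in hair matrix cells, 35.7% of the 56, where 19.9% of all tested entries were called in that direction. Another 7 were called higher in dermal papilla cells, 12.5% of the 56, where 25.2% of all tested entries were. In either direction the calls were 27 of 56 members, and 45.1% of all tested entries. The median log2 change (dermal papilla minus hair matrix) of the 56 was -0.70, and 45 of them were negative; over all 503 entries the median was -0.01 and 50.3% were negative. The filter bears on these counts, since 6 members passed only through the dermal papilla libraries, all of them called, and 11 only through the hair matrix libraries, of which 6 were called. Among the 32 members at 1 RPM or more in all 6 libraries, 0 were called higher in dermal papilla and 11 in hair matrix cells, beside 18.9% and 15.8% of the 317 entries of the whole table at that level. The median change of these 32 was -0.76, and 29 were negative.

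The groups of libraries did not overlap for 40 tested members with hair matrix above and for 10 with dermal papilla above, while 6 overlapped. Over all tested entries 42.3% lay apart with hair matrix above, 41.7% with dermal papilla above and 84.1% in either direction. Count models on whole reads gave more calls in hair matrix cells. edgeR and DESeq2 each called 29 members higher in hair matrix and 7 higher in dermal papilla cells, including the same 27, beside 28% and 28.4% of all entries for edgeR and 26.8% and 30% for DESeq2. Scaling moved the split as well. Median centring of the libraries moved the median of all tested entries from -0.01 to -0.29 and gave 28 members higher in hair matrix and 5 higher in dermal papilla cells, where 27.2% and 21.7% of all tested entries were called.

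**Figure D2:**
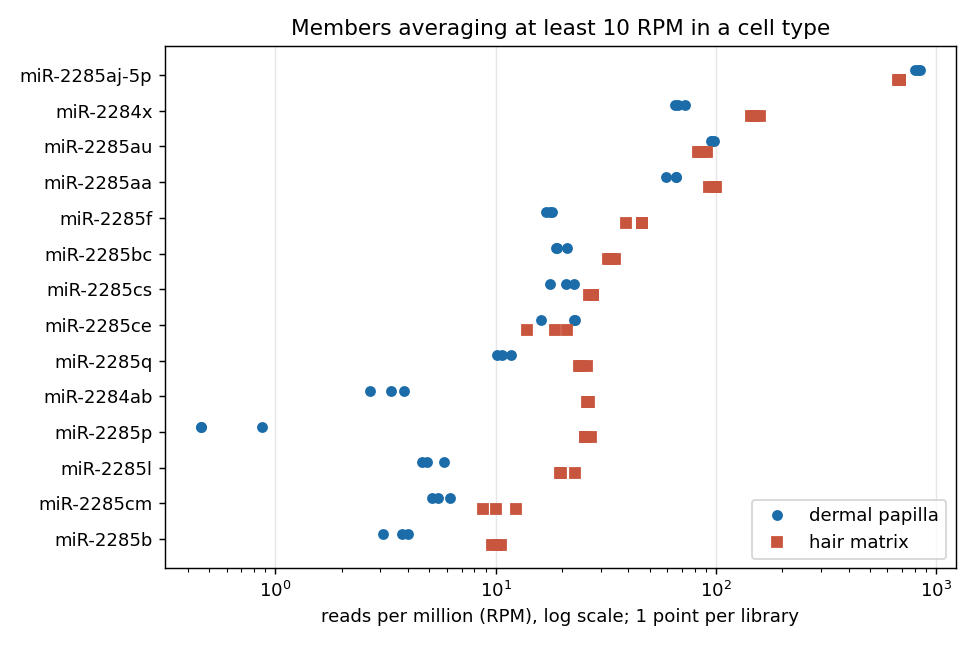
Level in each library of the 14 members with a mean of at least 10 RPM in either cell type, in RPM on a logarithmic horizontal axis, with a circle for each dermal papilla and a square for each hair matrix library. miR-2285p and miR-2284ab show the widest gaps between cell types, while the libraries of miR-2285ce overlap.

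The most abundant members differed less than many of the rare ones. miR-2285aj-5p stood at 840, 829 and 805 RPM in the dermal papilla libraries and 686, 671 and 687 RPM in the hair matrix libraries. All dermal papilla libraries were above, by 1.21-fold in the means, and the log2 difference of 0.27 ± 0.04 (SE; limma adjusted p = 0.000406) was too small for a call. It was 0.25 with TMM scaling (limma adjusted p = 0.000524) and 0.25 with edgeR (edgeR adjusted p = 0.00051). With median centring it was 0.00038 (limma adjusted p = 0.994), so the difference of miR-2285aj-5p depends on the scaling. miR-2284x differs from it over 21 aligned bases by the single substitution T14C (positions from 1 at the 5′ end of miR-2285aj-5p), outside the shared seed, and lacks the last base. It stood at 72.6, 65.5 and 67.6 RPM against 159, 150.0 and 144 RPM, and was called higher in hair matrix cells by 2.2-fold (log2 -1.13 ± 0.07, limma adjusted p = 2.58e-06). miR-2285aj-5p was thus 11.6, 12.7 and 11.9 times as abundant as miR-2284x in the dermal papilla libraries and 4.31, 4.47 and 4.79 times in the hair matrix libraries. The mean ratios of 12 ± 0.554 and 4.52 ± 0.243 lay apart in all libraries, and an exact two-sided permutation test gave p = 0.10, the smallest that 3 against 3 allows. Such a ratio within a library does not change with its scaling. It describes the listed values only, since how reads were assigned between these near-identical entries is not given.

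miR-2285au, the second most abundant member in dermal papilla cells, stood at 95.3, 95.8 and 98.4 RPM against 82.9, 85.4 and 90.8 RPM in hair matrix cells. Its log2 difference of 0.16 (limma adjusted p = 0.0343) was not a call and turned to -0.11 with median centring. miR-2285aa, the most abundant member of the other sequence group, stood at 65.9, 66.1 and 59.1 against 98.9, 92.7 and 100.4 RPM. It was higher in all hair matrix libraries by 1.53-fold (log2 -0.61, limma adjusted p = 0.000108), below the 2-fold minimum. miR-2285f stood at 17.0, 17.6 and 17.9 against 46.1, 39.0 and 46.1 RPM and was called higher in hair matrix cells by 2.50-fold (log2 -1.27 ± 0.08, limma adjusted p = 5.3e-06). These members carry most of the family's reads, and 14 members reached a mean of 10 RPM in either cell type.

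The members called higher in hair matrix cells, other than miR-2284x and miR-2285f, are printed next so that their seeds can be set beside their values. Of all 20, 16 belong to the miR-2285f group, in which the 3′ part of the sequence is held in common and the seed varies:
miR-2285p: aAAAACTTgagtgaacttttgg
miR-2284ab: tAAAAGTTtggttgggttttt
miR-2285cc: aAAAACCTgaatgaaccttttga
miR-2285l: aAAACCCGcatgaactttttggc
miR-2285be: aAAACTCGagcaaactttttgg
miR-2285ba: aAACCCTGaacgaactttttgg
miR-2285e: aAACCTGAacgaactttttggc
miR-2284z: aAAAAAGTttgtttgggttttt
miR-2285bg: aAACCCGAacgaactttttg
miR-2285ax: aAAACTTGaatgaaccttttgg
miR-2285cj: aAAACTGGaatgaactttttgt
miR-2285b: aAAATCTGagtgaactttttgg
miR-2285bz: aATAAGTTcgtttgggttttt
miR-2285j: aAAAACCAgaacgaactttttg
miR-2285q: aAGGACCTgaatgaactttctgg
miR-2285bp: aAAACCAGaacgaactttgtgt
miR-2285ab: aAAACCTGaatgaacttcttgg
miR-2285cd: aACAACCTggatgaactttttgg

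The largest difference in the family was that of miR-2285p. It stood at 0.460, 0.460 and 0.866 RPM in the dermal papilla libraries and at 25.4, 25.4 and 27.1 RPM in the hair matrix libraries. The means were 0.595 ± 0.235 and 26.0 ± 0.957 RPM, 43.6-fold apart (log2 -4.09 ± 0.12, limma adjusted p = 3.82e-08), and the least of the hair matrix values was far above any dermal papilla value. Next on that log2 scale, though not by the ratio of means, was miR-2284ab, which has the seed of miR-2285au. It stood at 3.85, 3.34 and 2.68 against 26.0, 26.4 and 26.6 RPM. The 8.0-fold difference (log2 -2.68 ± 0.11, limma adjusted p = 3.18e-07) again left the groups apart. miR-2285cc, with the seed of miR-2285bc, stood at 0.418, 1.09 and 0.289 against 5.95, 7.68 and 6.46 RPM. It was 11.2-fold higher in hair matrix cells by the means (log2 -2.29 ± 0.19, limma adjusted p = 1.8e-05).

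A further 8 called members had levels of several RPM or more in hair matrix cells. miR-2285l stood at 4.89, 4.64 and 5.82 against 22.9, 19.8 and 19.5 RPM, 4.06-fold apart. For miR-2285be the values were 1.25, 1.42 and 1.40 against 7.29, 6.74 and 7.37 RPM, 5.25-fold apart. miR-2285ba had 1.76, 1.46 and 1.86 against 7.53, 6.58 and 7.08 RPM, 4.18-fold apart. None of these groups of libraries overlapped. For miR-2285e, which has the seed of miR-2285c, the levels were 3.18, 2.46 and 2.56 against 10.5, 9.43 and 8.79 RPM, a 3.50-fold difference. miR-2284z was found at 1.00, 2.38 and 1.94 against 6.84, 6.04 and 6.71 RPM, a 3.68-fold difference. miR-2285b came to 3.10, 3.76 and 4.0 against 10.1, 9.60 and 10.5 RPM, a 2.79-fold difference. These too were higher in every hair matrix library. miR-2285j reached 3.56, 3.17 and 3.13 against 8.99, 7.72 and 8.83 RPM, 2.59-fold apart. miR-2285q reached 11.8, 10.2 and 10.6 against 24.4, 23.8 and 26.0 RPM, 2.27-fold apart.

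The remaining 7 hair matrix calls were of members near 1 RPM or less in dermal papilla cells. miR-2285cj, which shares the seed of miR-2285aa, stood at 1.25, 1.71 and 0.784 against 4.82, 4.37 and 3.96 RPM, and miR-2285bp at 1.05, 0.877 and 1.03 against 3.64, 3.47 and 2.75 RPM. miR-2285bg had 0.209, 0.376 and 0.124 against 3.08, 1.96 and 2.29 RPM, and miR-2285ax 0.293, 0.251 and 0.165 against 1.78, 2.49 and 1.96 RPM. For miR-2285bz the values were 0.418, 0.209 and 0.412 against 2.07, 2.12 and 2.17 RPM. All 5 lay higher in every hair matrix library. miR-2285ab, with the seed of miR-2285f, stood at 0.837, 0.752 and 0.536 against 2.47, 2.53 and 2.92 RPM, and miR-2285cd at 0.627, 0.877 and 0.289 against 2.67, 1.84 and 2.50 RPM. Over the 20 calls the log2 change ran from -1.07 to -4.09 and the limma adjusted p from 0.000585 to 3.82e-08, and the libraries lay apart for all 20. miR-2285cd was the weakest of them. Its log2 change was -0.92 without dermal papilla replicate 3 and just under the 2-fold minimum without hair matrix replicate 1.

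Members called higher in dermal papilla cells were all rare, with means of 1.26 to 4.94 RPM there. Apart from miR-2285dd, printed further on, they have these sequences, of which only that of miR-2285m belongs to the miR-2285f group:
miR-2285m: aAAACGCAaatgaactttttgg
miR-2284b: aAAAGTTCgtttggttttttc
miR-2284w: aAGAGTTTgttcgggtttctc
miR-2284h-5p: cCCAAAAGttcgttcgggttt
miR-2285bt: aAAAAGTTcatttgggttgtct
miR-2285ct: gAAAGTTAgtttggatttttct

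miR-2285m stood at 5.27, 4.14 and 4.08 RPM in the dermal papilla libraries and 0.567, 0.531 and 0.583 RPM in the hair matrix libraries. It was called 8.02-fold higher in dermal papilla cells (log2 1.81 ± 0.10, limma adjusted p = 2.15e-06). It differs from miR-2285ad by the single substitution G6C in the seed (positions from 1 at the 5′ end of miR-2285m), and miR-2285ad leaned the other way, with means of 0.444 ± 0.170 and 1.23 ± 0.209 RPM (log2 -0.63, limma adjusted p = 0.00164, below the 2-fold minimum). From miR-2285f it differs by G6C, C7T and A8G. These 3 members differ only inside the seed, and miR-2285m was higher in dermal papilla cells while miR-2285f and miR-2285ad were not.

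miR-2284b stood at 2.93, 2.67 and 2.76 against 0, 0.0817 and 0.250 RPM. It rests on 201 and 8 reads, a ratio of 25.5 scaled for depth (95% exact interval 12.7 to 59.9, counting error only). miR-2284y, with the same seed and the substitutions T12C and T15G (positions from 1 at the 5′ end of miR-2284b), stood at 1.86 ± 0.305 and 1.08 ± 0.164 RPM, higher in every dermal papilla library but below the 2-fold minimum (log2 0.46, limma adjusted p = 0.00624). miR-2284w was close to absent from hair matrix cells, at 2.30, 2.38 and 2.02 against 0, 0 and 0.0417 RPM. Its 161 and 1 reads give a ratio of 163 with a wide interval (28.9 to 6495), and the limma log2 change was 1.67 (adjusted p = 6.72e-07). miR-2285ct, at 1.38, 1.38 and 1.03 against 0, 0 and 0.125 RPM, rests on 91 and 3 reads, a ratio of 30.8 (10.2 to 152). These hair matrix values lie at or near the floor of 3 reads.

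miR-2284h-5p stood at 2.13, 1.59 and 2.35 against 0.121, 0.0408 and 0.375 RPM, 11.3-fold apart. It shares a stretch of 18 bases with miR-2284x but starts at another base and differs in the bases before that stretch, so its seed differs. In the sum of miR-2284h-5p with miR-2284x, miR-2284y and miR-2285av its level is a small part of 72.7 and 152.6 RPM (log2 -1.06, called higher in hair matrix cells). miR-2285bt, with the seed of miR-2285au, stood at 1.42, 2.26 and 1.61 against 0.324, 0.0817 and 0.333 RPM, 7.15-fold apart. The libraries lay apart for all 7 calls, with log2 changes of 1.12 to 1.81 and limma adjusted p from 0.0199 to 6.72e-07. With median centring miR-2285bt and miR-2285ct fell below the 2-fold minimum.

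The sequence groups differed in their counts, though their medians were close among members at 1 RPM or more in all 6 libraries. Of the 37 tested members of the miR-2285f group, 16 were called higher in hair matrix and 2 in dermal papilla cells, with a median log2 change of -0.87 and 34 negative. Of the 19 tested in the miR-2285aj-5p group, 4 were called higher in hair matrix and 5 in dermal papilla cells. Their median was -0.15 and 11 were negative. All 5 dermal papilla calls of this group passed the filter only through dermal papilla libraries. Over all tested entries 19.9% were called higher in hair matrix and 25.2% in dermal papilla cells. At 1 RPM or more in all 6 libraries, the median was -0.70 for 22 members of the miR-2285f group, 21 of them negative. For 10 of the miR-2285aj-5p group it was -0.79, with 8 negative. At that level 8 and 3 were called higher in hair matrix and 0 in dermal papilla cells. The shares of all such entries were 15.8% and 18.9%. With median centring the counts over all 37 and 19 tested members became 21 and 2, and 7 and 3. The shares of all tested entries were then 27.2% and 21.7%. edgeR gave 21 and 2, and 8 and 5, beside 28% and 28.4% of all entries. The difference between the groups was not tested, since near-identical members are not independent. Summed over all 80 members, the miR-2285f group stood at 227 ± 13.1 RPM in dermal papilla and 434 ± 12.4 RPM in hair matrix cells, 1.91 times as much. The 51 members of the miR-2285aj-5p group summed to 1025 ± 19.6 and 985 ± 11.0 RPM, with all dermal papilla libraries above, though hair matrix was 1.16 times as high with median centring. Without miR-2285aj-5p that group came to 200.1 ± 1.98 and 304 ± 2.16 RPM, 1.52 times as much in hair matrix cells.

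**Figure D3:**
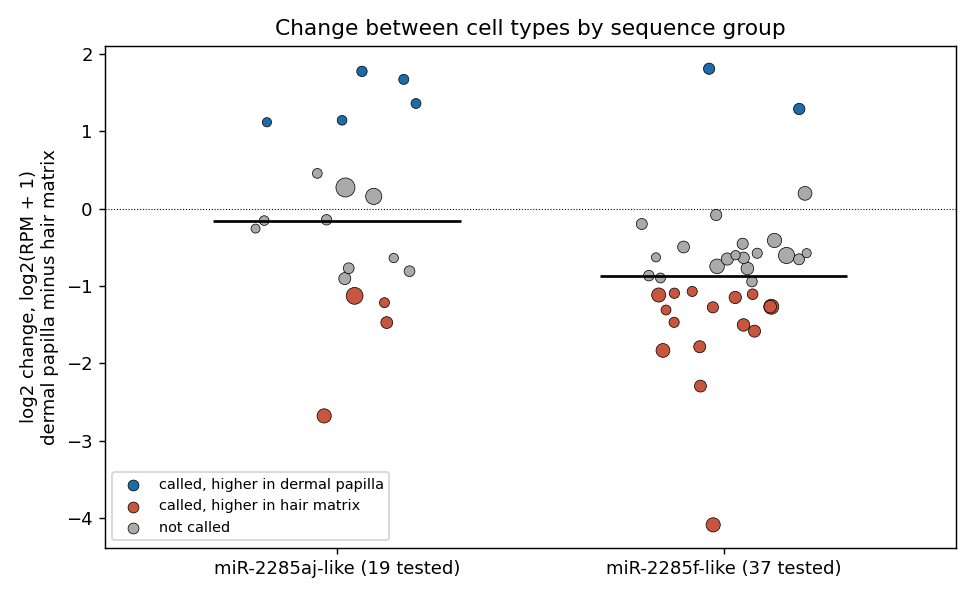
Log2 change of each tested member (vertical axis, dermal papilla minus hair matrix) by sequence group, with points coloured by call, larger points for more abundant members and a bar at the median. The miR-2285f group lies mostly below 0, around a median of -0.87. The miR-2285aj-5p group spreads on both sides of 0, around -0.15. Among members at 1 RPM or more in all 6 libraries the medians were -0.70 and -0.79.

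The 133 members have 71 different seeds, of which 48 belong to a single member. The 7 seeds with at least 2 tested members cover 48 members, and their sums show what level of a seed each cell type holds within the family. The seed GAAAAGT (miR-2285aj-5p, miR-2284x and miR-2285bo) summed to 894 ± 20.2 RPM in dermal papilla and 834 ± 12.2 RPM in hair matrix cells, 0.933 times as much in the latter. That direction turned with median centring, to 1.13. AAAAGTT, the same stretch read from a start shifted by 1 base, is the seed of 12 members led by miR-2285au and summed to 106.3 ± 1.18 and 120.6 ± 5.11 RPM, a ratio of 1.13. AAAGTTC, shifted once more and led by miR-2284b and miR-2284y, is the seed of 11 members and summed to 6.31 ± 0.368 and 2.66 ± 0.595 RPM. It was the one seed of the 7 that was higher in dermal papilla cells under either scaling, by 2.38-fold as deposited.

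In the miR-2285f group each of the 4 seeds with at least 2 tested members summed higher in every hair matrix library than in any dermal papilla library. AAACTGG (miR-2285aa and miR-2285cj) summed to 64.9 ± 4.43 and 101.7 ± 4.02 RPM, a ratio of 1.57. AAAACCT (6 members led by miR-2285bc) summed to 49.4 ± 4.23 and 63.8 ± 2.31 RPM, a ratio of 1.29 that came to 1.02 without miR-2285bc. AAACCTG (10 members led by miR-2285f) summed to 34.3 ± 1.18 and 74.7 ± 5.56 RPM, a ratio of 2.18, and AACCTGA (4 members led by miR-2285c) to 7.60 ± 0.570 and 18.2 ± 1.06 RPM, a ratio of 2.39. These last 3 seeds are again 1 stretch read from starts that lie 1 base apart, and the ratio was higher for each later start.

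Many members are so alike that their values may not be separate. In all, 84 of the 133 members, and 36 of the 56 tested, matched another member over 18 or more aligned bases with no more than 1 mismatch, and the largest chains of such pairs joined 38 and 31 members. How the authors assigned a read that matches several of them is not given in the sources used here, so the values of these members are uncertain. Summed before the fit, the chain of 38, which holds miR-2285f and belongs to the miR-2285f group, stood at 84.8 ± 7.78 RPM in dermal papilla and 148.6 ± 5.04 RPM in hair matrix cells (log2 -0.81, limma adjusted p = 4.35e-05), below the 2-fold minimum. The chain of 31, which holds miR-2285aj-5p, stood at 1008 ± 19.1 and 938 ± 11.1 RPM (log2 0.10). With chains summed, 27 family entries were tested, and 11 were called higher in hair matrix and 3 in dermal papilla cells, where 19.2% and 25.9% of all 474 entries in that fit were called. Calls of members inside a chain, such as miR-2285m and miR-2284b, then have no test of their own. Among the sums called were those of miR-2284ab with 3 others, at 6.68 and 35.6 RPM (log2 -2.26), of the chain led by miR-2285l (log2 -1.75) and of that led by miR-2285b (log2 -1.26).

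In one set the division of reads between entries varied from library to library. Its 3 entries share their first 21 bases, seed included, and differ only after them:
miR-2285ce: gAAAACCTgaatgaactttttga
miR-2285da: gAAAACCTgaatgaactttttt
miR-2285dd: gAAAACCTgaatgaacttttta

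miR-2285ce stood at 22.6, 23.0 and 16.1 RPM in the dermal papilla libraries and 18.5, 13.8 and 21.2 RPM in the hair matrix libraries. miR-2285da stood at 1.00, 4.39 and 5.36 against 2.39, 10.3 and 1.12 RPM, and miR-2285dd at 7.86, 5.26 and 1.69 against 0.972, 1.18 and 1.37 RPM. Replicates of miR-2285da spread more than those of most members, with a highest to lowest ratio of 5.34 in dermal papilla and 9.15 in hair matrix cells. Its share of the reads of the 3 entries ran from 3.19% to 23.1% in dermal papilla and from 4.75% to 40.7% in hair matrix libraries. miR-2285dd was called higher in dermal papilla cells (4.2-fold, log2 1.29 ± 0.40, limma adjusted p = 0.0199), with its lowest dermal papilla value only a little above the highest hair matrix value. The call was lost without dermal papilla replicate 1 or 2 or without hair matrix replicate 1 or 2, at a log2 change of 0.92 without dermal papilla replicate 1 and limma adjusted p values of 0.0651, 0.0574 and 0.0514 without the others. Summed, the 3 entries stood at 31.5, 32.6 and 23.2 against 21.9, 25.3 and 23.7 RPM, and the groups overlapped.

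**Figure D4:**
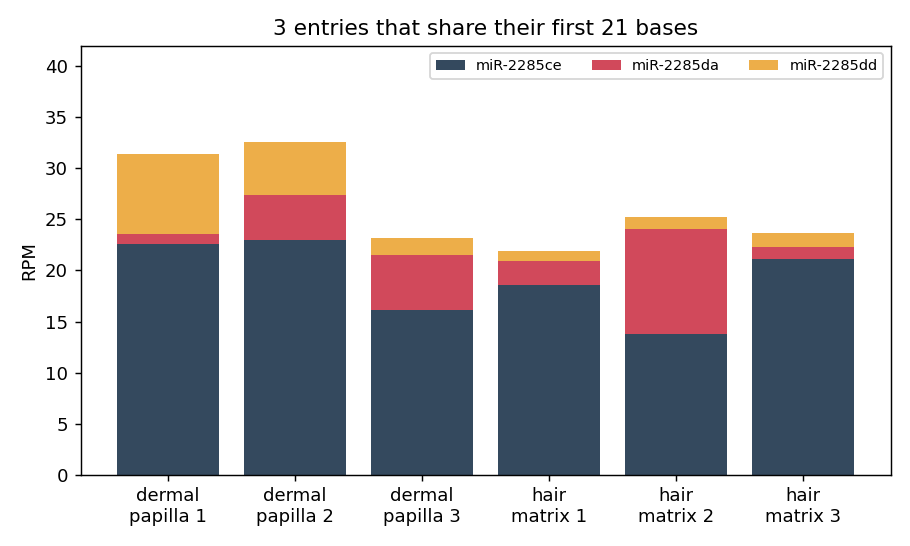
Level in RPM (vertical axis, from 0) of miR-2285ce, miR-2285da and miR-2285dd, stacked, in each library. The division among the 3 entries differs between replicates of a cell type, with miR-2285da at 10.3 RPM in hair matrix replicate 2 and 1.12 RPM in replicate 3.

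A like case was miR-2285aw, at 0.209, 2.21 and 0.825 against 1.17, 3.35 and 4.33 RPM, which has the seed of miR-2285f and was not called (log2 -0.94 ± 0.44, limma adjusted p = 0.0822). It is identical over at least 18 bases to miR-2285c and miR-2285cm, and summed with them it gave 11.3 ± 0.576 and 21.2 ± 0.906 RPM (log2 -0.85, limma adjusted p = 2.13e-05), with a far smaller spread between replicates. Single values of miR-2285aw rest on 1 or 2 libraries, since it passed the call without dermal papilla replicate 2 (log2 -1.31) or hair matrix replicate 1 (log2 -1.33). The sum of miR-2284z with miR-2284aa, whose 21 bases are all contained in miR-2284z, stood at 1.93 ± 0.626 and 7.53 ± 0.623 RPM (log2 -1.56), with hair matrix above in every library.

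Of the 29 tested members that were not called, 22 had a limma adjusted p under 0.05 with less than 2-fold, 19 of them negative and 3 positive (miR-2285aj-5p, miR-2285au and miR-2284y). Besides miR-2285aa, the more abundant of the negative ones were miR-2285bc, at 18.9, 18.8 and 21.1 against 33.3, 32.3 and 34.9 RPM (log2 -0.75), and miR-2285cs, at 20.9, 22.6 and 17.7 against 26.6, 27.7 and 27.7 RPM (log2 -0.41). Both were higher in every hair matrix library. Others between 2 and 11 RPM in hair matrix cells were miR-2285cm, miR-2285ak-5p, miR-2285c, miR-2285ac, miR-2285h, miR-2285i, miR-2285bf, miR-2284m, miR-2285z, miR-2285bn and miR-2285bs, with log2 changes of -0.45 for miR-2285i to -0.90 for miR-2285ak-5p. Those under 2 RPM were miR-2285v, miR-2284j, miR-2285ad, miR-2285x and miR-2285bi, at -0.58 to -0.90. edgeR called miR-2284j, miR-2284m, miR-2285ad, miR-2285ak-5p, miR-2285bi, miR-2285bn, miR-2285v, miR-2285x and miR-2285z as higher in hair matrix cells. Those 9 calls were its only additions to the 27, and DESeq2 added the same 9. The 7 with a limma adjusted p of 0.05 or more were miR-2285aw, miR-2285bo (log2 -0.26, higher in every hair matrix library), miR-2285bl (-0.20), miR-2285by (-0.15), miR-2285al-5p (-0.14), miR-2285da (-0.08) and miR-2285ce (0.20, and -0.076 with median centring).

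The other 77 members were too rare to test, with 1 to 139 reads over all 6 libraries and a median of 23. Together they summed to 13.2 ± 1.02 RPM in dermal papilla and 23.4 ± 2.74 RPM in hair matrix cells, so the lean towards hair matrix cells was also seen in members that the filter left out. Of these 77, 35 had reads in all 6 libraries, 12 had no dermal papilla read and 6 had no hair matrix read. The libraries lay apart for 21 with hair matrix above and for 8 with dermal papilla above, and overlapped for 48. Of the 2273 untested entries outside the family within the same range of reads, 10.1% lay apart with hair matrix above and 8.32% with dermal papilla above, though these were rarer, with a median of 5 reads. The most abundant were miR-2285dc, miR-2284d and miR-2285co, with means over all libraries of 0.956, 0.944 and 0.835 RPM. miR-2284ac, named after its values were seen, had 0 reads in dermal papilla and 74 in hair matrix cells (0.688, 0.939 and 1.42 RPM), at least 24.3-fold higher against a floor of 3 reads over the dermal papilla group, for counting error only. Over all 133 members, tested or not, the mean was higher in hair matrix cells for 97 and in dermal papilla cells for 36.

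Other miRNAs numbered as ruminant or cattle finds are given for comparison. Of 137 entries named miR-2286 to miR-2487, 43 were tested, of which 10 (23.3%) were called higher in hair matrix and 5 (11.6%) in dermal papilla cells, with a median log2 change of -0.21. Of 57 entries named miR-11970 to miR-12070, 12 were tested, of which 4 (33.3%) were called higher in hair matrix and 0 in dermal papilla cells, with a median of -0.20. The 357 tested cattle-named entries outside the family had 58 (16.2%) and 112 (31.4%) calls and a median of 0.25. The family's median of -0.70 was below all 3, beside its own 35.7% and 12.5%. By summed level miR-11970 to miR-12070 leaned further, at 20.3 ± 1.92 RPM in dermal papilla and 387 ± 32.9 RPM in hair matrix cells. In the same order, miR-2286 to miR-2487 summed to 293 ± 17.1 and 355 ± 13.2 RPM. The family summed to 1252 ± 32.2 and 1420 ± 23.3 RPM, and the other cattle-named entries to 724727 and 723784 RPM. These are descriptions of lists and were not tested against each other.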

How the data were processed

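Small RNA was sequenced from 6 libraries, 3 of each cell type. Per the submitters' processing notes, the tools included HISAT2 2.2.1.0, DESeq 1.20.0 and Trimmomatic, with no roles stated. How reads with several matches were counted, and against which genome build and miRNA set, is not given in the sources used here, and genome positions were not used. The deposited table calls its values TPM, but they are RPM, since 100% of values are whole multiples of 1 step per library within 0.001 read. Whole reads were recovered from these steps. The table gives each entry's mature sequence, and all of its value columns were used (0 unmapped).

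Entries at 1 RPM or more in at least 3 of 6 libraries were fitted as log2(RPM + 1) with limma 3.58.1 (R 4.3.3), a single term for cell type and variances with a mean trend, and p-values were adjusted by Benjamini-Hochberg over the 503 tested entries. The design had expected normalized values of an open unit, and RPM kept this test. Whole reads were tested with edgeR 4.0.16 and DESeq2 1.42.0, which called 284 and 286 entries. No pair of replicates agreed within counting noise (chi-square per degree of freedom 26.6 to 76.8 over all entries and a mean of 2.70 to 4.72 over members). Median replicate SDs of members were 0.145 (dermal papilla) and 0.116 (hair matrix) on the log2 scale. On simulated data of 503 entries for this comparison, limma called 0% of 1.5-fold, 22% of 2-fold, 94% of 4-fold and 100% of 16-fold changes. It called 0 of 303 unchanged entries. All simulated entries had the same dispersion between replicates beyond counting. These rates therefore do not cover members of wider spread, such as miR-2285da, with an SD of 108% of its mean in hair matrix cells.

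The members, lists and tests were chosen with earlier results of these data known. Values per library are given for called members and the 5 most abundant members of each cell type, sequences for called members and for the leaders of shared seeds, and untested members by counts with the 3 most abundant named. Alternatives were other pseudocounts, filters, scalings, variances, the replicate block, count models, near-identical members summed, and leaving out each library. Summing members identical over 18 bases, and median centring of summed levels, were added after seeing the data. The labels do not say whether the replicate numbers pair the libraries, and a check that cannot decide it is given with the limits.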

Additional observations from a re-analysis of the deposited data

Results flagged for a closer look

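Predicted entries without a cattle name lie outside the family as chosen here, yet 61 entries outside it, 60 of them predicted, were within 1 mismatch over at least 18 bases of a member, and 5 of these reached the level for testing. They are given because they hold signal that the family's counts do not include, and they were picked out after their values were seen. Their means lay above the floor of 3 reads in both cell types. Single values came nearer to it, such as 0.251 and 0.206 RPM in dermal papilla replicates 1 and 3 for the entry near miR-2285o.

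The most abundant of them was near-identical to miR-2285bg. It stood at 67.4, 64.5 and 59.2 RPM in the dermal papilla libraries and 8.06, 7.64 and 9.08 RPM in the hair matrix libraries. The means of 63.7 ± 4.17 and 8.26 ± 0.742 RPM (SD, n = 3 each) were 7.71-fold apart, higher in dermal papilla cells (log2 2.81 ± 0.09, limma adjusted p = 6.32e-08). miR-2285bg itself was called higher in hair matrix cells and stood at 0.236 and 2.44 RPM, so the likeness in sequence did not go with a likeness in level. At this level the predicted entry would be among the 5 most abundant of the family in dermal papilla cells. Its seed, in capitals, differs from that of miR-2285bg, printed second:
predicted entry near miR-2285bg: gAAATCCGaacgaacttttt
miR-2285bg: aAACCCGAacgaactttttg

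An entry near miR-2285o has the same seed and differs from the first only in its last base. It stood at 0.251, 5.10 and 0.206 against 1.05, 1.88 and 1.25 RPM, with a dermal papilla mean of 1.85 RPM that rests on replicate 2, and was not called. The entry near miR-2285cj and miR-2285cy had means of 2.91 and 5.73 RPM (log2 -0.78, below the 2-fold minimum). The entry near miR-2284x and miR-2284y, which has the seed of miR-2285aj-5p, had means of 1.58 RPM in both cell types and was not called. The entry near miR-2285ax had means of 0.665 and 3.65 RPM and was called higher in hair matrix cells (log2 -1.49, limma adjusted p = 2.82e-05), in the same direction as miR-2285ax.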

How the results depend on the processing

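The same 27 members were called with TMM scaling, variances without trend, no filter and the replicate block (7 higher in dermal papilla, 20 in hair matrix cells). Over all entries the block gave 127 and 101. Same-numbered libraries deviated with correlations of 0.141, 0.0798 and -0.275, and differently numbered ones with -0.430 to 0.388. With 3 libraries per cell type this cannot tell whether the numbers pair them. A pseudocount of 10 gave 0 and 4 calls of members (all entries 77 and 40), a filter of 10 RPM, which tests 12 members, 0 and 6 (80 and 47), and near-identical members summed 3 and 11 (123 and 91). Median centring turned miR-2285au to -0.11 and miR-2285ce to -0.076. Leaving out each library gave 6 to 7 and 19 to 22 calls, and miR-2285da ran from -0.60 to 0.61, turning without dermal papilla replicate 1 (0.43) or hair matrix replicate 2 (0.61). The hair matrix to dermal papilla ratio of the family sum was 1.37 with median centring and 1.73 without miR-2285aj-5p. With median centring the sums by seed had ratios of 1.13 (turned, miR-2285aj-5p), 1.37 (miR-2285au), 1.89 (miR-2285aa), 1.56 (miR-2285bc), 2.63 (miR-2285f) and 2.89 (miR-2285c). Without their most abundant member these were 2.19 (turned), 3.48, 3.50, 1.02, 1.85 and 3.49. Over tested members alone, the seed of miR-2284y had 0.256. A pseudocount of 0.5 gave 1 dermal papilla call in miR-11970 to miR-12070, and median centring 3 in miR-2286 to miR-2487. Depth limits members at or near the floor of 3 reads, and changes near 2-fold are often missed. Where not given by fewer tested entries or members, the cause was not tested.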
